A study of Mus musculus with 2 samples.

Results

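Emx1, Emx2, Tbr1, Fezf1, Fezf2, Olig3, Barhl1, Barhl2 and Dbx1, transcription factor genes that mark the dorsal forebrain and the divisions of the diencephalon, were followed in dissected midbrain of E12.5 mouse embryos. They were taken by gene symbol, 9 of 43346 measured genes, and each matched 1 gene identifier. The samples form 1 group of 2 libraries. Both came from healthy embryos of strain B6NCrl, with males and females pooled, and no treatment or genetic change is named. The replicate 1 library was made from a pool of 120 embryos and the replicate 2 library from a pool of 88 embryos, each from 10 ng of total RNA, so a value describes a pooled tissue and not one embryo or cell type. The list was drawn up knowing that most of these genes differ between the pools. Ratios between the pools are therefore given as descriptions, with no test, and with 1 library a pool they have no replicate check.

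These genes act while the neural tube is divided into regions. Emx1, Emx2 and Fezf1 with Fezf2 pattern the forebrain and the cortical progenitors, and Tbr1 is switched on in young glutamatergic neurons of the cortex. Olig3 and Dbx1 are expressed by progenitors in restricted bands, Olig3 in the thalamus and in the dorsal hindbrain and spinal cord, Dbx1 in parts of the diencephalon, midbrain and spinal cord. Barhl1 and Barhl2 are homeobox genes of neurons and their precursors in the diencephalon, the roof of the midbrain and the rhombic lip of the hindbrain. Several of them are thus not forebrain markers alone.

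The libraries held 28212913 and 36082574 rounded counts on genes, and spike-in RNAs took 4.14% and 3.48% of all counts. Of 14 midbrain and isthmus genes, 13 were at 1 TPM (a level per length, on a scale that sums to the same total in each library) or more in both libraries, and the midbrain and forebrain factor Otx2 stood at 147 and 142 TPM. Of 12 hindbrain and rhombic lip genes, 2 reached that level in both. In dissected bulk tissue, fewer cells of a type and less RNA per cell cannot be told apart.

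All 9 genes were detected in both pools, over a wide range of levels. Dbx1 was by far the most abundant and the only one that was not lower in replicate 2. The others ran from Barhl1, at 38.2 and 26.95 TPM, down to Fezf1, at 3.76 and 0.61 TPM. Ordered by mean TPM, they were Dbx1, Barhl1, Olig3, Emx2, Barhl2, Emx1, Fezf2, Tbr1 and Fezf1. The 2 values of a gene did not overlap those of the next in this order between Dbx1 and Barhl1, between Emx2 and Barhl2, and between Barhl2 and Emx1, while the remaining neighbours overlapped. Median levels over the 9 genes were 12.5 and 6.91 TPM, against 17.3 and 17.7 TPM over 15199 genes with at least 10 counts summed and a mean of at least 1 TPM. Each of the 9 was in that set, Fezf1 through its level in replicate 1.

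**Figure D1:**
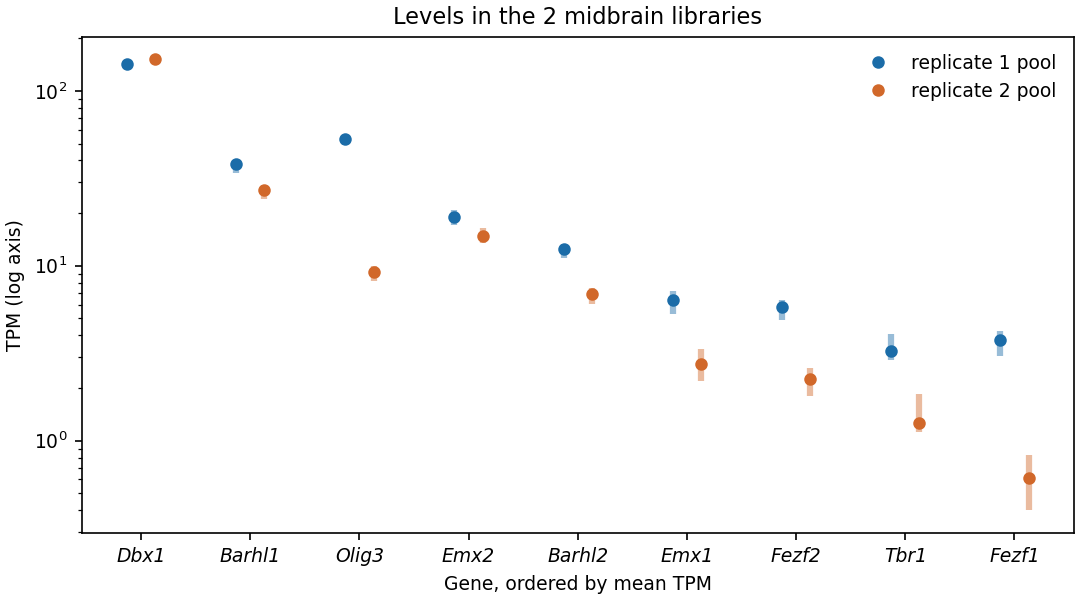
TPM of the 9 genes on a log axis, ordered by mean level, with 1 point per library and bars for the deposited TPM intervals. Dbx1 is near 150 in both libraries (142 and 152), and the replicate 2 point of every other gene lies below its replicate 1 point.

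Between the pools, 8 of the 9 genes were lower in replicate 2, where 49% of the 15199 genes were, and this held under every size factor tried. Of these, 6 were at least 1.5-fold lower, where 2.5% of the 15199 genes were, and none was at least 1.5-fold higher, where 3.26% were. Among the 11975 of those genes with summed counts between 177 and 11780, the range of the 9 genes, 0.852% were at least 1.5-fold lower and 1.73% at least 1.5-fold higher, and 48.5% were lower by any amount. Since the list was chosen on this contrast, nothing is read from these counts. The median log2 ratio of TMM-normalised counts, replicate 2 over replicate 1, was -1.25 over the 9 genes and 0.00 over all 15199. The deposited TPM intervals of the pools were apart for all 9, lower in 8 where 5.3% of genes were, and higher for Dbx1 where 10.8% of genes were. In the same range of summed counts these shares were 5.07% and 11%. Of the genes past the 1.5-fold line, Barhl2 was the nearest to it, at 1.85-fold lower. Short of the line stood Barhl1 at 1.46-fold and Emx2 at 1.37-fold lower.

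**Figure D2:**
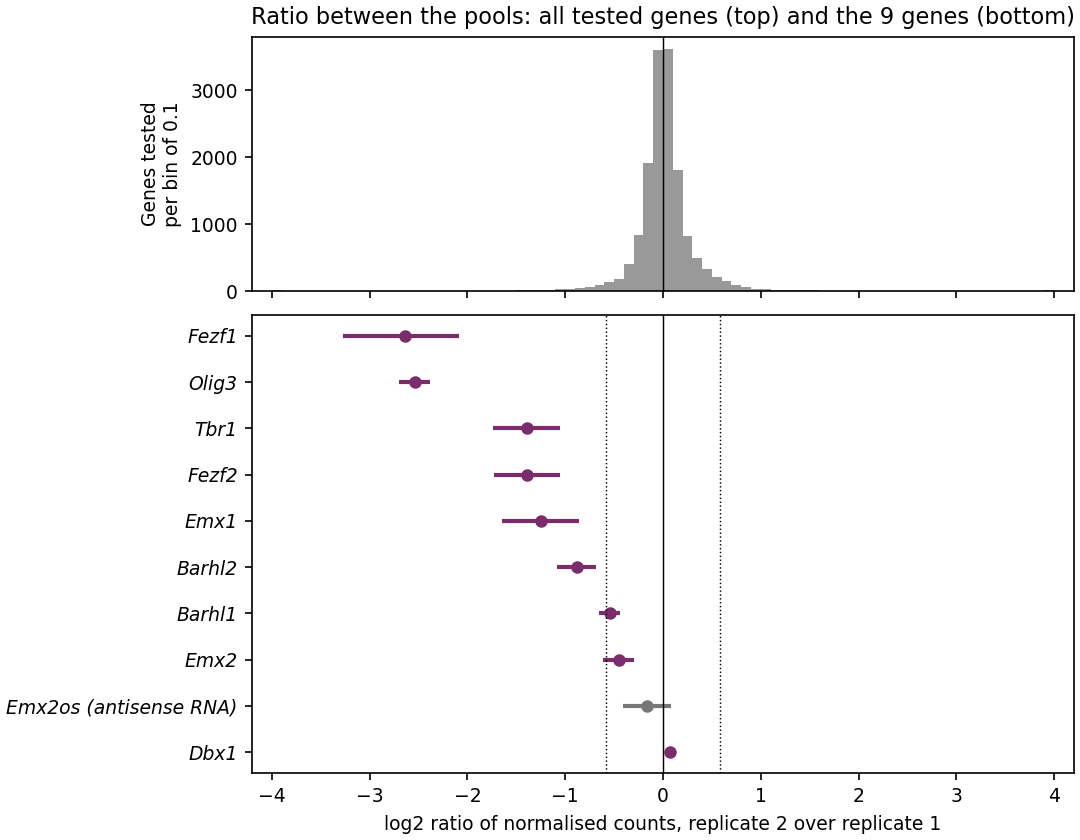
Top: histogram of log2 ratios between the pools for the 15199 genes, with ratios past 4 in either direction drawn in the end bins. Bottom: the 9 genes and the antisense RNA Emx2os, with 95% exact binomial intervals that cover counting error only and dotted lines at 1.5-fold. The genes spread from -2.64 for Fezf1 to 0.07 for Dbx1, and most of the 15199 genes lie close to 0.

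Olig3, a basic helix-loop-helix factor of thalamic and dorsal hindbrain progenitors, had the largest fall in TPM. It held 1826 counts in replicate 1 and 404 in replicate 2, or 52.9 and 9.26 TPM. Replicate 1 was the high library, and the deposited intervals (48.9 to 53.6 and 8.19 to 9.95 TPM) lay far apart. The ratio was 5.81-fold lower in replicate 2, with a 95% exact binomial interval of 5.22 to 6.50-fold, and the ratio ranked 23 from the lowest among the 15199 genes. Olig3 has 1 exon (chr10:19356533-19358604, plus strand, GRCm38). Its relatives Olig1 and Olig2 also stood higher in replicate 1, as 49% of the 15199 genes did. Olig2, a progenitor factor of the ventral neural tube and the thalamus, was at 9.39 and 5.04 TPM, and Olig1 at 4.10 and 1.95 TPM.

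Dbx1, a homeobox factor of progenitors (chr7:49631499-49636849, minus strand), stood apart from the rest. It held 5013 and 6767 counts, or 142 and 152 TPM, a mean of 147 ± 6.78 TPM (SD, n = 2), above 95.2% of protein-coding genes. The 2 libraries were close, with replicate 2 at 1.05-fold the level of replicate 1 (interval 1.01 to 1.09-fold for counting error), and 66.6% of the 15199 genes had a lower ratio. Of the summed TPM of the 9 genes, Dbx1 made up 50.02% in replicate 1 and 70.1% in replicate 2. The summed level of the other 8 genes was 142 and 64.8 TPM. Dbx2, the relative of Dbx1, is not among the 9 and went the other way. It was lower in replicate 2, at 0.91 and 0.39 TPM (54 and 29 counts), a mean below 1 TPM.

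For Dbx1 and Olig3, the most abundant of the 9 and the one with the largest fall in TPM, the sequence upstream of the annotated start is shown because they alone of the 9 hold a TATAAA match, the core of a TATA box. Bases are from RefSeq on GRCm38.p6, outside every GENCODE M21 exon, written 5′ to 3′ on the gene's strand, and capitals mark TATAAA and CCAAT on either strand. The stretch of Dbx1 is chr7:49636850-49637085, minus strand, and that of Olig3 is chr10:19356289-19356532, plus strand.
Dbx1: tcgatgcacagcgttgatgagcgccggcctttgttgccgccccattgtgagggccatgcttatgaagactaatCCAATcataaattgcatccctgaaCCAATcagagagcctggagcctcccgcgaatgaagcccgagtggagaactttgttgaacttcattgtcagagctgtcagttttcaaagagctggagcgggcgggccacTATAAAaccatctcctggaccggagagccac
Olig3: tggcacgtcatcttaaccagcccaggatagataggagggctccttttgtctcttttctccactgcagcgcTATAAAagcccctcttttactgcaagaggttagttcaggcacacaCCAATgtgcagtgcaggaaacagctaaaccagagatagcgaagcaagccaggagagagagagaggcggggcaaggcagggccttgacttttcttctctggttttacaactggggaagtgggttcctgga
The stretches shown are the first 236 (Dbx1) and 244 (Olig3) of the 250 bases before the RefSeq start. They stop short of that start, where a GENCODE M21 exon begins. In Dbx1 the TATAAA match began 45 bases before the RefSeq start, and in Olig3 it began 180 bases before it. Over the 250 bases before each start, TATAAA was present for 2 of the 9 genes (Olig3 and Dbx1) and in 12.4% of 32851 promoters in the table. CCAAT was present for 4 of the 9 (Emx2, Fezf1, Olig3 and Dbx1) and in 33.8% of promoters. TAATTA, the core that many homeodomains bind, was present for Tbr1 alone and in 4.84% of promoters. CTTTGA, a core of TCF/LEF sites, was present for 3 (Tbr1, Fezf2 and Dbx1) and in 13.8%, and the E-box CANNTG for 5 (Emx1, Tbr1, Olig3, Barhl1 and Barhl2) and in 66.2%. For Tbr1, Emx1 and Emx2 the 250 bases begin inside an annotated GENCODE M21 exon, and their matches were counted all the same. The 9 genes had 10 promoters, as Barhl1 was listed more than once. A gene was counted if any of its promoters matched, whereas the percentages are over promoters, so the shares are not like for like. The motifs were chosen after the values were seen, and these are letter matches only.

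Emx1 and Emx2, homeobox factors of the cortical field, were both lower in replicate 2, Emx1 by more. Emx1 lies at chr6:85187438-85204462 and Emx2 at chr19:59458372-59465357, both on the plus strand. Emx2 held 677 and 638 expected counts, or 19.1 and 14.8 TPM, and was 1.37-fold lower (interval 1.22 to 1.52-fold). Emx1 held 159 and 86 counts, or 6.36 and 2.74 TPM, and was 2.37-fold lower (interval 1.82 to 3.13-fold). In both libraries Emx2 was the higher of the pair per length, 3.01-fold in replicate 1 and 5.41-fold in replicate 2. The log2 ratio of Emx1 to Emx2 in TPM was -2.01 ± 0.60 (SD, n = 2). The most alike 180 bases of their coding sequences, both in the homeobox, are shown to let the pair be compared and to show why reads can be told apart. They are written 5′ to 3′ on the coding strand, and capitals mark the 38 bases that differ. The stretch of Emx1 lies in 2 exons at chr6:85194086-85203951, plus strand, and that of Emx2 in 2 exons at chr19:59461710-59463922, plus strand (GENCODE M21, GRCm38).
Emx1: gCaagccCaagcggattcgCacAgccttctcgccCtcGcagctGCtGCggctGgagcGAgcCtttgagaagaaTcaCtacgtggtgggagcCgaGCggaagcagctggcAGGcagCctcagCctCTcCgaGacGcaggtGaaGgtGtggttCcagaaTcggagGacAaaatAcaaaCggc
Emx2: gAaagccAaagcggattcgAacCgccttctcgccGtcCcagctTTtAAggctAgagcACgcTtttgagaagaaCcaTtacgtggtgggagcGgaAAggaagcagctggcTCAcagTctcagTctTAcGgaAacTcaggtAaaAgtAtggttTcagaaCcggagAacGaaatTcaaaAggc
The longest run of bases shared by transcripts of both genes was 14 bases, and no word of 100 bases, the read length that the deposited effective lengths correspond to, was shared.

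Emx2os, an RNA from the opposite strand whose annotated span overlaps Emx2 over 264 bases at its start, was the one annotated gene overlapping any of the 9. It held 255 and 293 expected counts, or 2.93 and 2.65 TPM. Its deposited intervals overlapped (2.50 to 3.19 and 2.30 to 2.89 TPM), while those of Emx2 did not (17.04 to 20.8 and 13.5 to 16.4 TPM). The log2 ratio of Emx2os was -0.16 (interval -0.41 to 0.08), and it took the other sign, 0.11, when scaled to spike-ins. Whether the counting used strand is not given in the sources used here. The deposited posterior SD of the count, which measures how freely reads were shared with other genes, was 1.26 and 1.07 for Emx2 and 0 for the other 8 genes. It was also 1.26 and 1.07 for Emx2os. The estimates thus divided some reads between Emx2 and Emx2os although they lie on opposite strands, with an uncertainty that is small beside the counts of either gene.

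Fezf1 and Fezf2, zinc finger repressors of the forebrain field and, for Fezf2, of deep-layer cortical neurons, were low in both libraries and lower in replicate 2. Fezf1 lies at chr6:23245044-23248362 and Fezf2 at chr14:12342094-12348189, both on the minus strand. Fezf1 had the lowest ratio of the 9, with 147 and 30 counts, or 3.76 and 0.61 TPM. It was 6.23-fold lower, but with so few counts the interval was wide, 4.24 to 9.68-fold. Fezf2 held 226 and 111 counts, or 5.79 and 2.25 TPM, and was 2.61-fold lower (interval 2.08 to 3.32-fold). Fezf2 was the higher of the pair in both libraries, 1.54-fold in replicate 1 and 3.69-fold in replicate 2, and the log2 ratio of Fezf1 to Fezf2 in TPM was -1.25 ± 0.89 (SD, n = 2). Their most alike 180 coding bases lie in the zinc finger region, with 25 differences in capitals. The Fezf1 stretch is in 2 exons at chr6:23245974-23246572, minus strand, and the Fezf2 stretch in 2 exons at chr14:12342637-12343696, minus strand.
Fezf1: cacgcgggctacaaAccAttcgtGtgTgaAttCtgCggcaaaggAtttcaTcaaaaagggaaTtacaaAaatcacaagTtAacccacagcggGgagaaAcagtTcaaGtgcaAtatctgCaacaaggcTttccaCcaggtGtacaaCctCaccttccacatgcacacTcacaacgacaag
Fezf2: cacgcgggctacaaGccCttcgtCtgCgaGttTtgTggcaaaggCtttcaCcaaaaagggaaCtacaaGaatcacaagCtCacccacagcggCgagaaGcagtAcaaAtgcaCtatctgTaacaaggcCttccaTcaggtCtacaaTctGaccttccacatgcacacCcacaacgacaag
The longest run shared by transcripts of this pair was 23 bases, and they shared no word of 100 bases.

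Barhl1 and Barhl2 were the members of the third pair, and both were lower in replicate 2. Barhl1 lies at chr2:28907679-28916668 and Barhl2 at chr5:106452523-106458166, both on the minus strand. Barhl1 held 1500 and 1324 counts, or 38.2 and 26.95 TPM, and was 1.46-fold lower (interval 1.35 to 1.57-fold). Barhl2 held 492 and 343 counts, or 12.5 and 6.91 TPM, and was 1.85-fold lower (interval 1.61 to 2.13-fold). The order of the pair was the same in both libraries, with Barhl1 above Barhl2 by 3.05-fold in replicate 1 and 3.90-fold in replicate 2, a log2 ratio in TPM of 1.79 ± 0.25 (SD, n = 2). Their most alike 180 coding bases cover most of the homeobox, with 28 differences in capitals. The Barhl1 stretch lies in 2 exons at chr2:28909860-28911458, minus strand, and the Barhl2 stretch in 2 exons at chr5:106453607-106455566, minus strand.
Barhl1: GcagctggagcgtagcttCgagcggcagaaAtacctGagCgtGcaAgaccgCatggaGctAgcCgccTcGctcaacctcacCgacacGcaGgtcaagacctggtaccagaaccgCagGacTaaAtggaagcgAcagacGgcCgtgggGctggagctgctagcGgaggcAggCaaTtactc
Barhl2: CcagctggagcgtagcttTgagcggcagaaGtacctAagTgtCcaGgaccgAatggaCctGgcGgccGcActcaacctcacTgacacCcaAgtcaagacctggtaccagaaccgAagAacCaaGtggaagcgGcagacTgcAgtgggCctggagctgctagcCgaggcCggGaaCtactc
Over their whole coding sequences, aligned bases were identical at 69.3% for this pair, 69.97% for Emx1 and Emx2, and 65.4% for Fezf1 and Fezf2. In each pair the lower gene per length had the lower ratio between the pools.

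Tbr1, a T-box factor of young cortical neurons (chr2:61802930-61814114, plus strand), held 214 and 105 counts, or 3.24 and 1.26 TPM. It was 2.62-fold lower in replicate 2 (interval 2.07 to 3.35-fold), close to Fezf2, and the intervals of these 2 genes overlapped almost wholly. In the list of pallial neuron and intermediate progenitor genes, Eomes, the factor of the intermediate progenitors that precede Tbr1-positive neurons, was at 2.33 and 0.70 TPM. Neurod6, a factor of postmitotic cortical neurons, was at 2.28 and 1.11 TPM. The other genes of that list did not share this direction throughout. Of 9 genes at or above 1 TPM on average, 6 were lower and 3 higher, and 3 were at least 1.5-fold lower. Eomes, one of these 3, reached that mean through replicate 1 alone, so its place among the lower genes was favoured by the filter. The median log2 ratio was -0.23, or -0.18 with every gene of at least 10 summed counts. Scaling to spike-ins, which raised the median ratio of all 15199 genes by 0.27 and left 8.36% of them below 0 in place of 49%, moved this median to 0.04 with the common shift and left 4 genes lower. Neurod1, the most abundant of the list, stood at 38.3 and 36.7 TPM, and Bhlhe22 at 1.44 and 1.97 TPM.

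Transcript estimates were available for 19 transcripts. Barhl2, Dbx1, Fezf1, Fezf2 and Olig3 had 1 annotated transcript each, and for all 4 genes with several, the most abundant transcript was the same in both pools. Emx2 was divided between the full-length coding transcript Emx2-201 (3 exons, 759 coding bases) and Emx2-202 (207 coding bases), which starts downstream of it. Emx2-201 was at 7.86 and 4.90 TPM, with intervals apart (6.65 to 8.70 and 4.12 to 5.56 TPM), and its share of the gene was 41.1% and 33.1%. Emx2-202 was at 10.7 and 9.91 TPM, with overlapping intervals, and its share was 56.1% and 66.9%. By these estimates the fall in TPM was larger for Emx2-201. Of the 1580 bases of Emx2-202, 1370 are 3' untranslated, which beside its coding bases leaves room for a stop codon only. Its coding sequence thus begins at its first base, and the annotated form may be incomplete at its start. The 2 forms overlap at their 3' ends, and coverage along transcripts may be uneven. Whether the full-length form fell by more was not tested. The antisense overlap is at the start of Emx2-201.

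Barhl1 was divided over 5 transcripts, 3 of which hold 981 coding bases. Barhl1-201, with the longer 3' untranslated region (1949 bases), was at 11.01 and 6.85 TPM, with intervals apart. Barhl1-203, with a 659-base region, was at 12.5 and 10.3 TPM, with overlapping intervals, and its share was 32.6% and 38.2%. The processed transcript Barhl1-205 held 22.9% and 20.4%, and Barhl1-204 held 14.2% in both. Posterior SDs of 44.97 to 52.02 counts on Barhl1-201 and Barhl1-203 show how loosely short reads divide them. The coding transcript Emx1-201 held 82.9% and 79.7% of Emx1, and the rest went to Emx1-202, which retains an intron. Tbr1-201 held 94.3% and 94.4% of Tbr1, or 85.3% and 76.7% by the posterior mean.

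**Figure D3:**
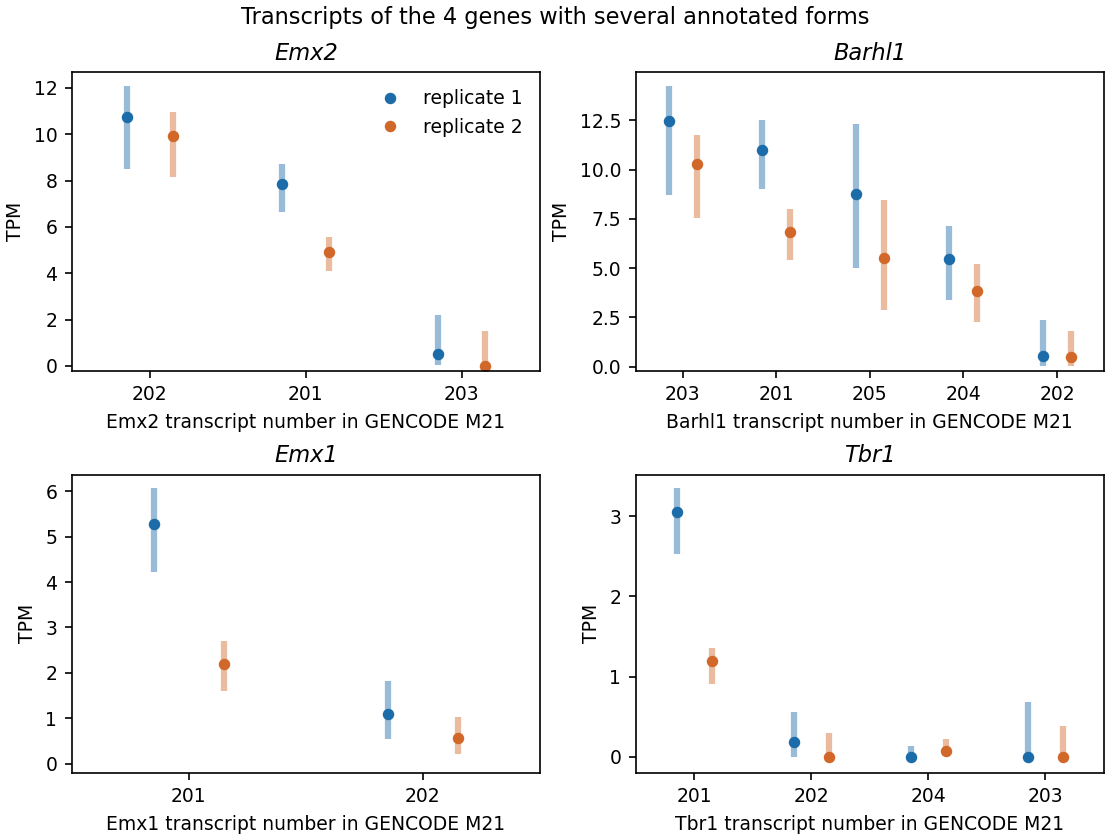
TPM of each annotated transcript of Emx2, Barhl1, Emx1 and Tbr1 in both libraries, with bars for the deposited TPM intervals. Bars of Emx2-201, Barhl1-201, Emx1-201 and Tbr1-201 are apart between the libraries, and the bars of every other transcript overlap.

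Genes with the ratio most like that of Fezf1, the lowest of the 9, were Duxbl3, Olig3, Rspo3, Pax6 and Gm14434, among 10725 protein-coding genes with a mean of at least 5 TPM. Likeness here is the distance in log2 ratio over 2 libraries only. Olig3 was 0.10 away, Rspo3, a secreted enhancer of WNT signalling, was 0.69 away at 28.2 and 7.45 TPM, and Pax6, a factor of forebrain progenitors, was 0.89 away at 60.02 and 17.7 TPM. The deposited intervals of Duxbl3 and Gm14434 overlapped between the libraries, so their ratios are uncertain. For Emx1, at the median of the 9, the nearest were Rspo1, at 13.4 and 5.66 TPM, S100a8, mt-Co3, Zfp973 and 2210418O10Rik, of which the last 3 had overlapping intervals.

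Other genes of the same brain regions were mostly lower in replicate 2 by TMM, where 49% of all 15199 genes were lower, and in smaller number when scaled to spike-ins, where 8.36% of all genes were. Of 13 pallial progenitor and cortical hem genes, 12 were lower and 4 at least 1.5-fold lower, or 8 and 3 when scaled to spike-ins, and 2 of the 13 (Wnt2b and Dmrt3) passed the filter through replicate 1 alone. The median log2 ratio of the 13 was -0.40, or -0.13 when scaled to spike-ins. Emx2os is among the 13. For Emx2os, Wnt2b, Gli3 and Dmrta2, all counted as lower, the interval for counting error reached past 0. By TPM, Gli3 (32.9 and 33.5) and Dmrta2 (2.60 and 2.62) were nearly level. Dmrt3, a factor of the medial cortical progenitors, was at 2.34 and 0.84 TPM, whereas Lhx2, a selector factor of the cortex that is also expressed in the midbrain and thalamus, was at 107 and 90.9 TPM. Lmx1a, which marks the hem, roof plate and midbrain floor plate, went the other way, at 12.6 and 16.1 TPM. Of 17 genes of the thalamus, pretectum, habenula and zona limitans, 12 were lower and 3 at least 1.5-fold lower, or 6 and 2 when scaled to spike-ins. Among them were Tcf7l2, a factor of thalamic and pretectal neurons, at 444 and 283 TPM, and Neurog2, a proneural factor, at 125 and 68.5 TPM. Their median log2 ratio was -0.09, and the 0.18 it took when scaled to spike-ins is that value with the common shift of 0.27 added. Foxp2, at 38.6 and 50.4 TPM, and Rora, at 5.46 and 7.31 TPM, were the 2 highest in ratio. Of the 17, Irx1, Prox1, Irx5 and Neurog1 were counted as lower although the interval for counting error reached past 0. It did so too for Irx3 and Shh, counted as higher. By TPM, Prox1 (8.49 and 8.58) and Neurog1 (31.6 and 31.8) were nearly level.

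Markers of other tissues moved too, and their part in the ratios above was not tested. Of the 6 choroid plexus genes, 5 averaged 1 TPM or more. At least 1.5-fold lower in replicate 2 were 3 of these, where 2.5% of the 15199 genes were. Ttr, the transthyretin gene, was at 38.7 and 13.8 TPM. Kcne2, one of the 3, passed the filter through replicate 1 alone, at 2.16 and 0.32 TPM. The median log2 ratio of the 5 was -1.51, further from 0 than that of the 9 genes, but -0.62 over all 6 genes. Folr1 and Aqp1 of the same list were higher, at 5.39 and 9.76 TPM and at 4.00 and 6.52 TPM, and the summed level of the list was 54.3 and 32.2 TPM. Of 13 midbrain and isthmus genes, 10 were higher in replicate 2, where 7756 of the 15199 genes were. At least 1.5-fold higher were 2 of the 13, where 495 of the 15199 were. When scaled to spike-ins these counts were 11 and 7 of the 13, and 13928 and 1431 of the 15199. The median log2 ratio of the 13 was 0.33, and the 0.60 it took when scaled to spike-ins is that value with the common shift of 0.27 added. The summed level of the list was 382 and 453 TPM. Fgf8, the signal of the isthmus, went the other way, at 4.58 and 3.55 TPM, as did Wnt1, at 10.6 and 7.17 TPM, though their deposited intervals were apart for Wnt1 alone. All 8 mesenchyme genes, all 7 red cell genes and all 6 microglia and macrophage genes were higher in replicate 2, where 7756 of the 15199 genes were. Summed levels were 1093 and 1546 TPM for mesenchyme, 15443 and 18078 TPM for red cells, and 88.0 and 113 TPM for microglia and macrophages.

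**Figure D4:**
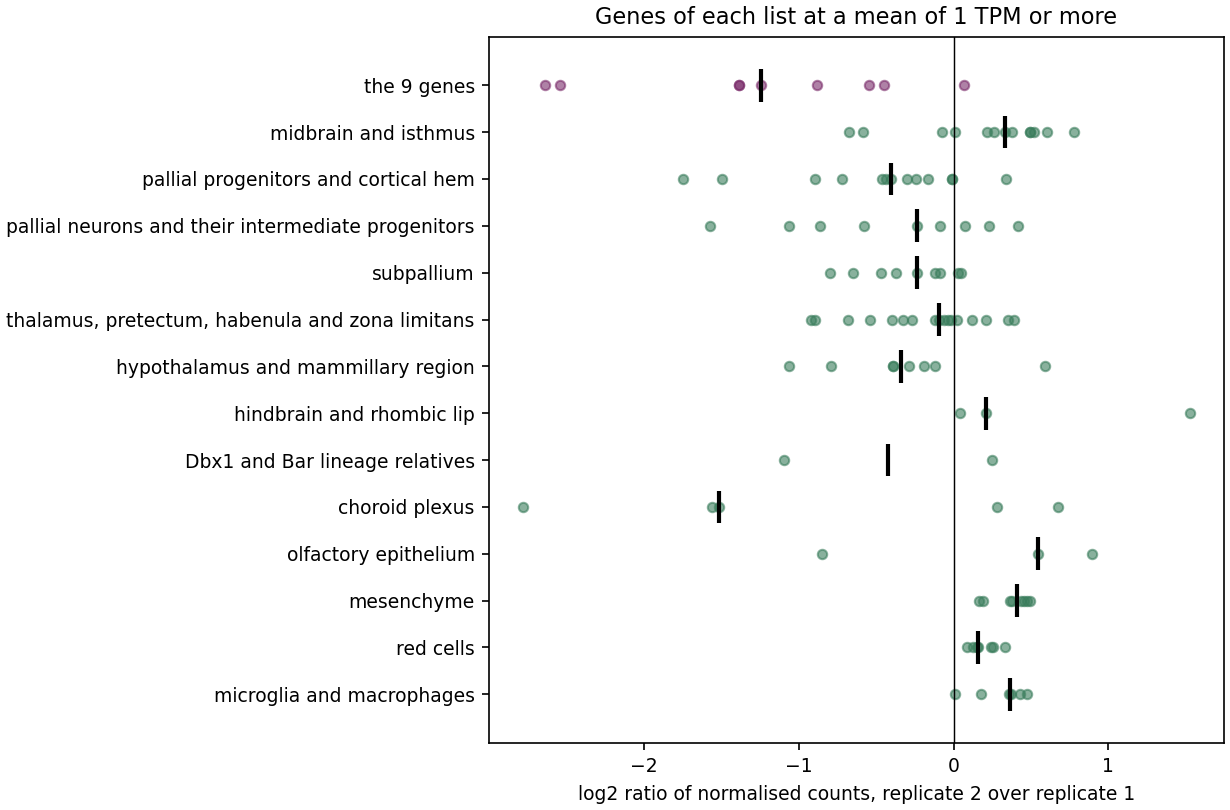
Log2 ratio between the pools for the 9 genes and for each gene of the comparison lists at a mean of at least 1 TPM, with a bar at each list's median. The 9 genes reach -2.64 and have a median of -1.25, the medians of the forebrain lists lie closer to 0, that of the choroid plexus list lies lower at -1.51, and the mesenchyme, red cell and microglia lists lie above 0.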

How the data were processed

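RNA of 2 midbrain libraries, 1 group, was analysed. The authors deposited expected counts, estimated per gene and transcript, TPM and posterior mean TPM, and isoform percent, the share of a gene's TPM in each transcript, in RSEM-style columns per the file headers. The deposited bounds of the TPM intervals and posterior SDs of counts were used as a non-negative signal. Annotation was GENCODE M4 on mm10 per the notes deposited with each library, and the aligner is not given in the sources used here. The labels say total RNA, yet link the manual of a SMARTer Ultra Low kit, which primes from poly(A) tails, so coverage along transcripts may be uneven. Per the labels the pools are biological replicates.

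Identifiers were named with GENCODE M21, also on mm10 (42462 of 43346 matched). Expected counts were rounded. Size factors were TMM (edgeR 4.0.16, R 4.3.3), 0.997 and 1.003, over genes only, without spike-ins and 26248 short features. Log2 ratios had 0.5 counts added, and 95% exact binomial intervals cover counting error only. Some deposited TPM values, as for Dbx1, lie outside their own deposited interval. The ratio and interval steps were tested on simulated data. Alternatives were DESeq2 1.42.0 factors, total counts, spike-ins, other pseudocounts, folds and filters, posterior mean TPM, rescaled TPM, CPM and leaving out each library. Coding sequences were aligned with Biopython 1.88.

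The genes and lists were chosen with earlier results of these data known. Named genes were the 9, genes overlapping them, in each list the 3 highest in mean TPM and the 2 largest ratios in each direction at a mean of at least 1 TPM, and the 5 nearest in ratio to the gene with the largest and to that with the median ratio. Olig1 and Olig2 came under this rule. Some other genes were named where they limit a statement.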

Additional observations from a re-analysis of the deposited data

How the results depend on the processing

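Under DESeq2 size factors, total gene counts, spike-in counts, a pseudocount of 1, deposited TPM and posterior mean TPM, 8 of the 9 genes stayed lower in replicate 2, 6 at least 1.5-fold, and the median log2 ratio ranged from -1.25 to -0.98. With a looser fold 8 genes passed, and at 2-fold 5. Scaling to spike-ins moved the median of all genes by 0.27 and, with it, Emx2 to -0.18, Barhl1 to -0.27 and Dbx1 to 0.34 on the log2 scale, and left 4 lists with a median below 0 in place of 7. The top transcript of Tbr1 held 80.99% by the posterior mean, in place of 94.3%. Leaving out each library in turn gave a median level of 6.91 to 12.5 TPM, log2 TPM ratios of -2.44 to -1.59 for Emx1 to Emx2, -1.88 to -0.62 for Fezf1 to Fezf2 and 1.61 to 1.96 for Barhl1 to Barhl2. A ratio between the pools cannot be had without both libraries. Counting error limits Fezf1 most, at 30 counts in replicate 2. No paired analysis was possible because there is 1 group. All alternatives here were planned.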

Other observations

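Other regional lists were read only as surroundings of the 9 genes. Of all 15199 genes, 49% were lower in replicate 2 by TMM and 8.36% when scaled to spike-ins. Of 8 hypothalamic and mammillary genes with a mean of at least 1 TPM, 7 were lower in replicate 2, or 5 when scaled to spike-ins (Sim2 passed through replicate 1 alone), with Nkx2-1, a ventral forebrain factor, at 7.48 and 4.29 TPM, and Rax higher under both, at 1.53 and 2.38 TPM. Of 9 subpallial genes, 7 were lower, or 4 when scaled to spike-ins, with Dlx1, a factor of forebrain GABAergic neurons, at 48.2 and 30.6 TPM and Isl1 at 31.3 and 17.3 TPM, while Gsx1 stood at 21.6 and 22.8 TPM. The medians of these lists were -0.34 and -0.23 on the log2 scale, or -0.07 and 0.04 when scaled to spike-ins, which raised the median of all genes by 0.27. The interval for counting error reached past 0 for hypothalamic Otp, Pomc and Foxb1 and for subpallial Dlx6 and Lhx6, all counted as lower. It did so too for Gsx1 and Gsx2, counted as higher. Atoh1, the factor of the rhombic lip, where Barhl1 is also expressed, went the other way from Barhl1, at 0.74 and 2.20 TPM, and passed the mean of 1 TPM through replicate 2 alone. The 7 eye genes were under 1 TPM in both libraries on their means, the highest being Pmel at 0.72 and 0.95 TPM.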
